A study of Mus musculus with 9 samples.

Results

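Hearts of OMA1 knockout mice and of wild-type mice were compared after both had received isoproterenol, using 6 of the 9 libraries of the study. The treated wild-type group and the treated knockout group held 3 libraries each, from the hearts of male mice aged 12 weeks, and the labels give both genotypes the C57BL/6JOlaHsd nuclear background. Isoproterenol, an agonist of β-adrenergic receptors, was delivered by minipump at 10 mg/kg per day for 7 days. The other 3 libraries came from knockout hearts labelled as untreated controls, for which no pump is mentioned, and they are shown here only beside the treated values and in the estimate of the spread. How the Oma1 allele was made, and whether animals were pooled, is not given in the sources used here, and no untreated wild-type group was analysed here. Genes were compared where the deposited value, a read count normalized to library size, reached 10 in at least 3 of the 9 libraries, which kept 8543 of 13539 listed genes. Values per library are given as normalized read counts in the order of the replicate numbers, wild-type and knockout hearts are the treated ones unless called untreated, and a log2 difference is knockout minus wild type on log2(value + 1), with its standard error. The labels give no animal numbers, so the p-values measure only the spread between these samples, which may be technical.

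OMA1 is a protease of the inner mitochondrial membrane that is activated by stress and cleaves OPA1, the dynamin-like GTPase that fuses inner membranes and shapes cristae. Cutting of OPA1 stops inner membrane fusion and favours fragmentation of the mitochondrial network. The heart depends on its mitochondria for nearly all of its ATP, and sustained β-adrenergic drive raises its workload through cAMP, protein kinase A and calcium and leads to hypertrophy and fibrosis.

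Recovered reads ranged from 6.93e+06 to 1.22e+07 per library. Transcripts of the mitochondrial genome took 36.7% to 37.3% of the values of treated wild-type libraries and 38.2% to 42.5% of those of treated knockout libraries (exact two-sided permutation test, p = 0.1, the smallest that 3 libraries against 3 allow). Treated wild-type replicate 3 stood apart in the sum of the atrial markers and in matrix transcripts. Treated knockout replicate 2 did so in mitochondrial share and in haemoglobin transcripts. A list's count that moved by at least 2 genes and by over 1.5 times without any 1 library is given with that library. The ventricular light chain Myl2 ranged from 3494 to 4621 over the 9 libraries, whereas the atrial light chain Myl4 stood at 1.38, 1.73 and 1.06 in treated wild-type and 2.59, 1.46 and 2.11 in treated knockout hearts, against 454, 186 and 292 in untreated knockout hearts. The 10 atrial markers summed to 1027, 1117 and 2156 in treated wild-type and 833, 793 and 899 in treated knockout hearts, against 3949.6, 2063 and 2799 in untreated knockout hearts, so wild-type replicate 3 lay above untreated knockout replicate 2. In Myl4 alone that wild-type library was the lowest of the 9. In RNA of bulk tissue, fewer cells of a type and less RNA per cell cannot be told apart.

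The shared background was checked at Mmrn1, encoding multimerin 1, a chromosome 6 gene that C57BL/6JOlaHsd mice are known to lack. Mmrn1 stood at 0 in all 3 treated wild-type libraries and at 1.66, 1.98 and 1.3 in treated knockout and 1.45, 0.615 and 1.11 in untreated knockout libraries. Its reads were thus present in every knockout library and absent from every treated wild-type library, 51 reads over the 3 treated knockout libraries against 0. The knockout libraries therefore held reads of a gene that the background on their label is known to lack. The gene lay below the minimum for testing, so no fold is given, and the part that strain differences between the groups may have in the results was not tested. Nnt, the mitochondrial transhydrogenase that some C57BL/6J mice lack, was transcribed in every library, at 691, 659.7 and 568 in wild-type and 541, 392 and 523 in knockout hearts. The libraries of the 2 groups were separate, and it was lower in knockout hearts (log2 difference -0.41 ± 0.11, adjusted p = 0.0179), a call lost without wild-type replicate 1 or 2 or treated knockout replicate 2.

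Between the treated groups 2379 of 8543 genes passed the threshold and are spoken of as called (27.8%; limma on log2(value + 1), adjusted p under 0.05), 1023 of them higher (12.0%) and 1356 lower (15.9%) in knockout hearts. The median log2 difference over all tested genes was -0.01 and the median size of a called difference was 0.37 on the log2 scale. The largest differences were few, with 89 genes higher and 152 lower by at least 1.5-fold and 9 higher and 18 lower by at least 2-fold (27 genes, 0.316%). In 3725 genes (43.6%) the 3 libraries of one treated group all lay above those of the other, and 2315 of these had passed the threshold. Scaling each library without its mitochondrial transcripts moved the split to 1390 higher and 1065 lower genes, so that 56.6% of the called genes were higher in place of 43.0%. Without treated knockout replicate 2, 534 genes were higher and 802 lower.

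Transcript length moved with the direction of change. With tested genes in 5 length classes of equal size, the class with the shortest transcripts (151 to 2106 bases) held 380 higher and 52 lower genes, and the class with the longest (5652 to 106824 bases) 102 higher and 484 lower. The median deviation of the longest class minus that of the shortest, on the log2 scale and relative to the mean of all libraries, was 0.16, 0.02 and 0.19 in treated wild-type, -0.12, -0.16 and -0.11 in treated knockout and -0.02, 0.01 and 0.03 in untreated knockout libraries. Every treated knockout library thus lay below every treated wild-type one (exact two-sided permutation test, p = 0.1, the smallest possible). Each comparison was therefore repeated with the trend on transcript length and GC content removed from every library, which left 752 genes higher and 968 lower, 1374 of them also called before the correction, and a median of -0.02. Of the 190 genes named below that passed, 170 kept their call without each of the 9 libraries in turn and after that correction, and the losses of the others are stated with them.

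**Figure D1:**
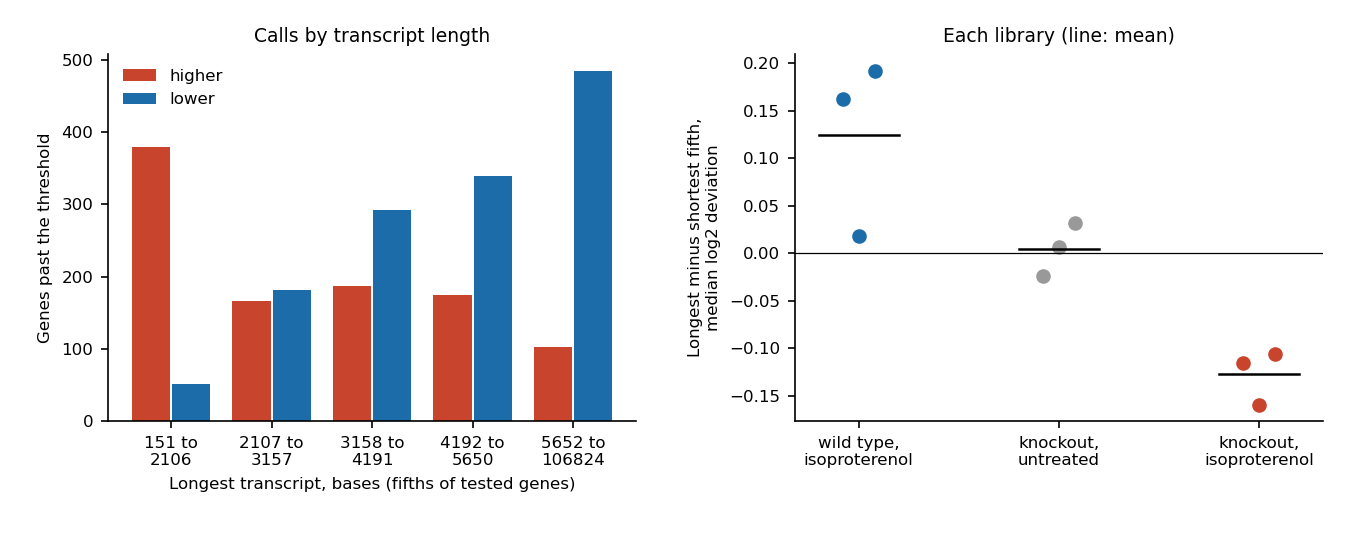
Left, genes past the threshold in 5 length classes of tested genes, by longest transcript (x axis, bases; y axis, number of genes, bars for higher and lower in treated knockout hearts). Right, the median log2 deviation of the longest minus the shortest class in each library (points) with the group mean (line). Higher genes prevail among short transcripts (380 against 52) and lower genes among long ones (102 against 484), and all 3 treated knockout libraries lie below all others.

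Oma1 (ENSMUSG00000035069, chromosome 4, 103313812 to 103371868, GRCm38) kept a part of its reads in knockout hearts, at 22, 19.9 and 17.7 in wild-type and 6.74, 5.73 and 6.25 in knockout hearts, and 6.52, 9.1 and 6.63 in untreated knockout hearts. All knockout values lay below all wild-type values (log2 difference -1.53 ± 0.14, adjusted p = 4.7e-05), and which exons the allele lacks is not given in the sources used here. Opa1, its substrate, stood at 202, 214 and 179.5 in wild-type and 130.5, 107 and 139 in knockout hearts (log2 difference -0.66 ± 0.10, adjusted p = 0.000857). The groups did not overlap, and untreated knockout hearts (196, 206 and 187) lay within the range of treated wild-type hearts. Of 18 tested genes of inner membrane proteases and their partners 3 were higher and 5 lower (median -0.01), and 1 and 3 after the length correction. Yme1l1, the other protease that cuts OPA1, had a log2 difference of -0.28 ± 0.08 (adjusted p = 0.0178), a call lost without wild-type replicate 1 or treated knockout replicate 2 and after the correction (-0.17, adjusted p = 0.107). Chchd2, a small protein of the intermembrane space, was higher in every treated knockout library (312, 297 and 249 in wild-type and 387, 373 and 385 in knockout hearts; log2 difference 0.42 ± 0.08, adjusted p = 0.00351). The number of lower genes in the list was 1 without wild-type replicate 1, 2 without wild-type replicate 2 and 2 without knockout replicate 2, and the number of higher genes 1 without knockout replicate 2.

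Both mitofusins, the GTPases that fuse outer membranes, were lower in knockout hearts. Mfn1 stood at 351, 334 and 293 in wild-type and 256, 226 and 259.7 in knockout hearts (log2 difference -0.40 ± 0.08, adjusted p = 0.00442). Mfn2 stood at 731, 705 and 635 in wild-type and 540.4, 437 and 554 in knockout hearts (log2 difference -0.44 ± 0.09, adjusted p = 0.00484). Neither gene's groups overlapped, and treated knockout replicate 2 had the lowest value of each. Rhot1, which links mitochondria to microtubule motors, was lower with a log2 difference of -0.35 ± 0.08, while the fission genes Dnm1l and Fis1 differed with log2 differences of -0.29 ± 0.08 and 0.31 ± 0.08. Both calls were lost after the length correction and without knockout replicate 2, that of Dnm1l also without wild-type replicate 1. Of 11 tested genes of outer membrane fusion and fission 6 were lower and 1 higher (median -0.23), and 4 and 0 after the correction. Of 17 genes of cristae junctions and cardiolipin 2 were higher (11.8%) and 1 lower (5.88%), with a median of -0.0002. Neither share exceeded that over all tested genes (12.0% higher, 15.9% lower). The lower gene was Immt, the core of the MICOS complex (464, 504 and 416 in wild-type and 346, 315 and 366 in knockout hearts; log2 difference -0.43 ± 0.08, adjusted p = 0.0031). Of 29 tested genes of mitophagy and autophagosomes 3 were higher (1 without wild-type replicate 2 or knockout replicate 1 and 0 after the length correction) and 6 lower, led by the mitophagy receptor Bcl2l13 (77.7, 80.2 and 66.7 in wild-type and 59.6, 48.5 and 58.4 in knockout hearts; log2 difference -0.43 ± 0.09, adjusted p = 0.0055). The shares of that list were 10.3% higher and 20.7% lower. Without treated wild-type replicate 2 or treated knockout replicate 2 its lower genes numbered 2, and without wild-type replicate 1 they numbered 3.

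The 12 largest falls were taken from called genes with a mean value of at least 50 and treated groups that did not overlap. They spanned membrane transport, transcription, fuel use and cell architecture. Slc8a1, the sodium-calcium exchanger that removes calcium from the myocyte, led them at 141, 138 and 133 in wild-type and 55.1, 37.6 and 54.3 in knockout hearts (log2 difference -1.49 ± 0.12, adjusted p = 2.45e-05). Tead1 (ENSMUSG00000055320, chromosome 7), the DNA-binding partner of YAP, stood at 116, 105 and 124 in wild-type and 46.5, 34 and 53.2 in knockout hearts (log2 difference -1.37 ± 0.12, adjusted p = 4.27e-05). In both genes knockout replicate 2 was the lowest library. Untreated knockout hearts lay far above the treated ones, at 116, 125 and 111 for Slc8a1 and 121, 125 and 126 for Tead1. Lnpep, an aminopeptidase of glucose-transporter vesicles, stood at 71.8, 63 and 61.1 in wild-type and 34.5, 20.6 and 26.8 in knockout hearts (log2 difference -1.25 ± 0.15, adjusted p = 0.00021). Palld, an actin-bundling protein of the Z-disc and of stress fibres, stood at 123, 101 and 102 in wild-type and 62.1, 44.6 and 64.6 in knockout hearts (log2 difference -0.93 ± 0.12, adjusted p = 0.000517). No wild-type value of these genes fell within the knockout range, as their choice required. Other falls of this group were Pdpr, Gpam, Srp54b, Tfrc, Dag1, Prkar2a and Chrm2, with log2 differences of -1.27, -1.13, -0.96, -0.94, -0.89, -0.86 and -0.85. Srp54b, a subunit of the signal recognition particle, has near-identical copies beside it, between which reads can be shared.

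The 12 largest rises, chosen by the same rule and so also without overlap, were smaller and held several short transcripts. Myh7b, a slow myosin heavy chain of the heart, stood at 37.8, 31.6 and 26.8 in wild-type and 70.5, 88.2 and 52.3 in knockout hearts (log2 difference 1.09 ± 0.16, adjusted p = 0.000818), with the lowest knockout library above the highest wild-type one. Neat1, the long noncoding RNA that builds nuclear paraspeckles, stood at 742, 635 and 728 in wild-type and 1063, 1458 and 1179 in knockout hearts (log2 difference 0.80 ± 0.11, adjusted p = 0.000601). Its untreated knockout values of 577, 511 and 478 were below those of both treated groups. Shank3, a scaffold protein, stood at 49.2, 40.4 and 43.7 in wild-type and 74, 86.9 and 67.3 in knockout hearts (log2 difference 0.76 ± 0.10, adjusted p = 0.000601). Rnf207, a ubiquitin ligase that acts on a cardiac potassium channel, stood at 52, 42.4 and 42.6 in wild-type and 75.9, 75.7 and 68.1 in knockout hearts (log2 difference 0.67 ± 0.09, adjusted p = 0.000664). In both genes, as that rule required, the lowest knockout library lay above the highest wild-type one. Atp6v1g1, a subunit of the vacuolar proton pump, stood at 58.9, 57.1 and 51.9 in wild-type and 88.2, 92 and 88.2 in knockout hearts (log2 difference 0.67 ± 0.08, adjusted p = 0.00021). Untreated knockout libraries also lay above the treated wild-type ones for Myh7b (70.8, 59.9 and 58.7), for Rnf207 (78.8, 71 and 65.6) and for Atp6v1g1 (88.9, 79.1 and 76). Other rises of this group were Rps29, Cd74, Cox7c, Egfl7, Rpl13 and Rpsa-ps10, with log2 differences of 0.77, 0.73, 0.66, 0.65, 0.65 and 0.62. Rpsa-ps10 is annotated as a processed pseudogene, and reads of its parent gene can be counted to it.

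**Figure D2:**
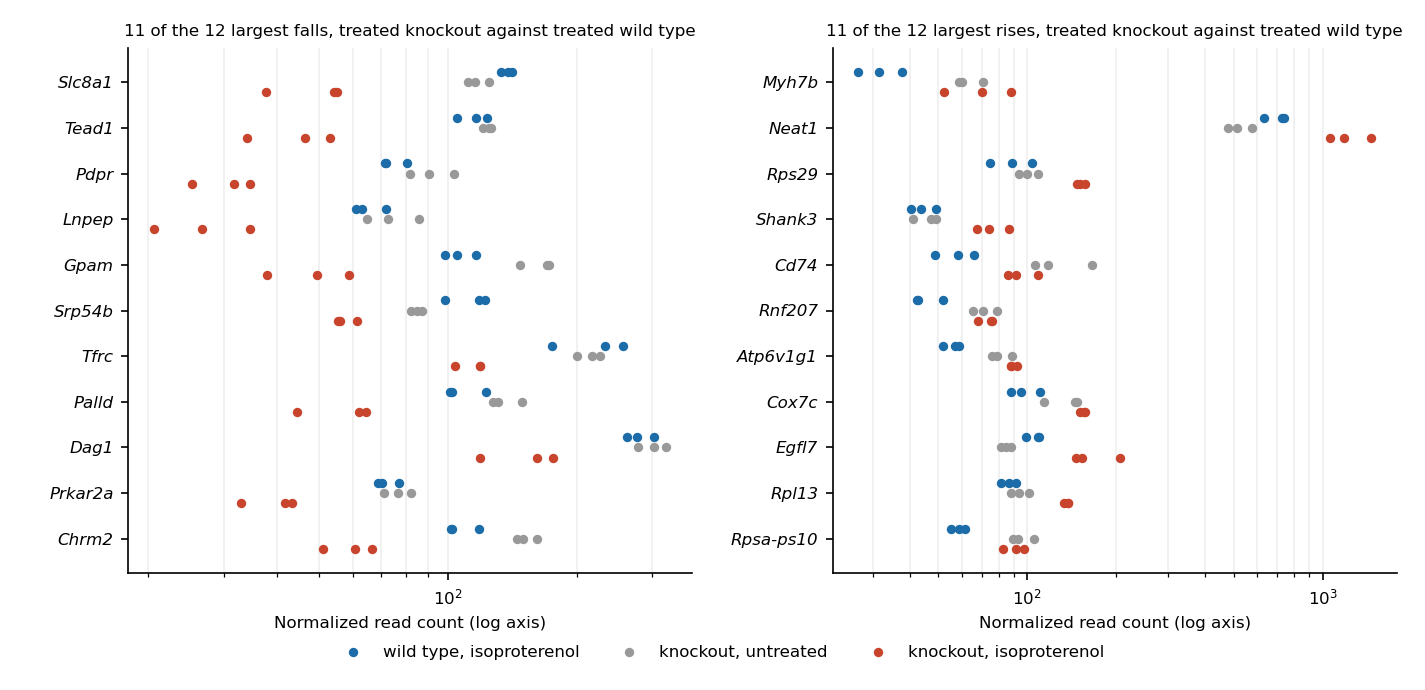
Normalized read count (x axis, logarithmic) of 11 of the 12 genes with the largest fall (left) and 11 of the 12 with the largest rise (right), 1 point per library, coloured by group. Only genes whose treated groups did not overlap were eligible. By that choice no red point (treated knockout) falls within the range of the blue points (treated wild type). In Slc8a1 the treated knockout libraries lie between 37.6 and 55.1 and the treated wild-type ones between 133 and 141.

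In the value itself, the largest rise of a called gene was that of a mitochondrial mRNA and the largest fall that of a calcium pump. The mitochondrial cytochrome oxidase mRNA mt-Co3 rose from 32116 ± 1369 to 39925 ± 1624 (mean ± SD, n = 3; log2 difference 0.31 ± 0.09, adjusted p = 0.0259), a call lost without any 1 of treated wild-type replicates 1 and 2 and treated knockout replicates 2 and 3, and after the length correction (0.21, adjusted p = 0.0807). Tnnt2, cardiac troponin T, stood at 4371, 4045 and 3859 in wild-type and 5218, 5067 and 4904 in knockout hearts (log2 difference 0.31 ± 0.08, adjusted p = 0.0132). Tnni3, cardiac troponin I, stood at 2155, 2106 and 1549.5 in wild-type and 2689, 2586 and 2561 in knockout hearts (log2 difference 0.45 ± 0.11, adjusted p = 0.0105). Both groups of values were separate in both troponin genes, but the Tnni3 call was lost after the length correction (0.19, adjusted p = 0.194). Atp2a2, which encodes the calcium pump SERCA2 of the sarcoplasmic reticulum, fell the most in value, at 11150.2, 10707 and 8637 in wild-type and 7901, 6059 and 8028 in knockout hearts (log2 difference -0.47 ± 0.12, adjusted p = 0.0122). Its call was lost without wild-type replicate 1. Pln, the inhibitor of that pump, stood at 4693, 4560.2 and 3913 in wild-type and 3766, 2928 and 3827 in knockout hearts (log2 difference -0.33 ± 0.11, adjusted p = 0.0347), and its call was lost without wild-type replicate 1 or 2, untreated knockout replicate 1 or 2 or knockout replicate 2, and after the correction (-0.27, adjusted p = 0.0568). Ttn, the giant spring of the sarcomere, stood at 4307, 3682 and 4219 in wild-type and 3429, 3088 and 3455 in knockout hearts (log2 difference -0.29 ± 0.09, adjusted p = 0.0308), with the call lost without wild-type replicate 1 or treated knockout replicate 2.

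**Figure D3:**
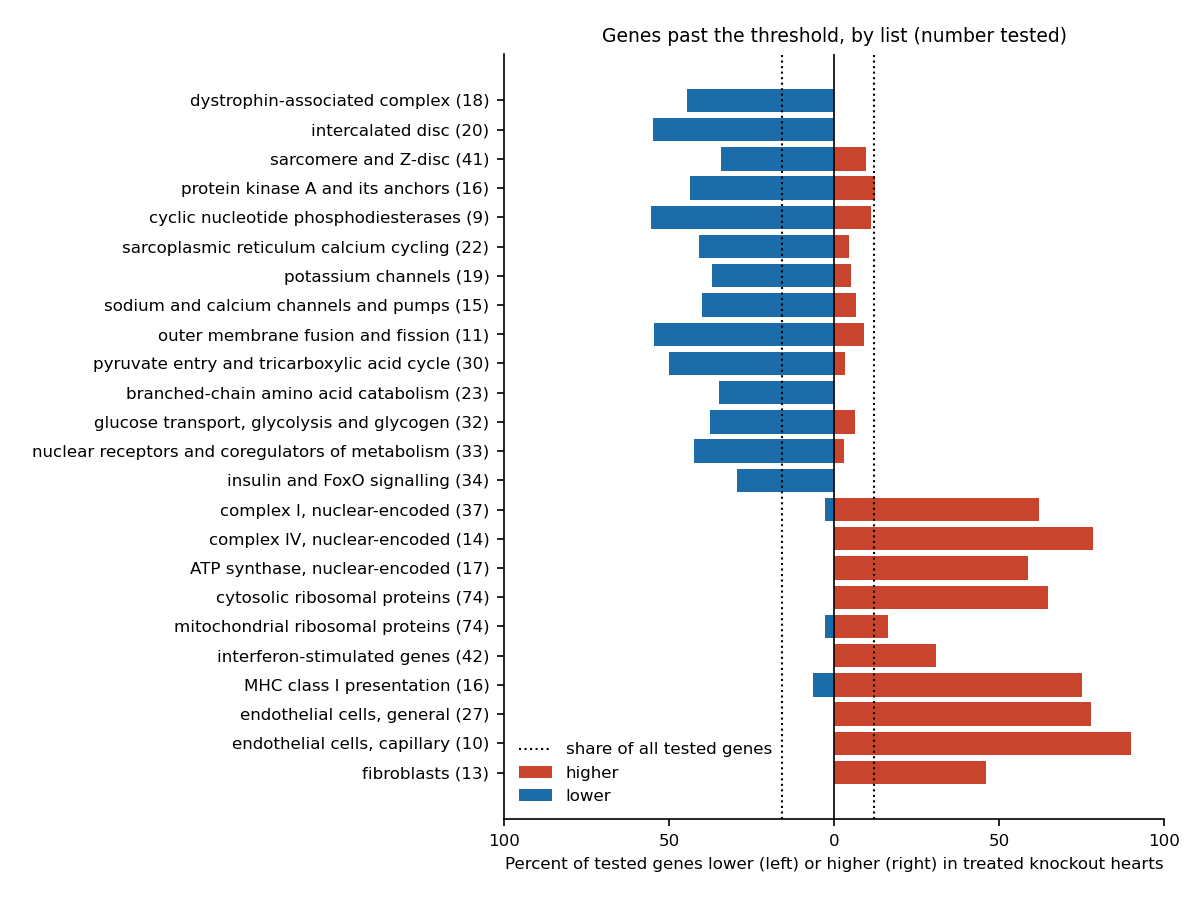
Percent of the tested genes of a list that were lower (bars to the left) or higher (bars to the right) in treated knockout hearts. The lists shown are a choice from 73, with the number tested in parentheses. Complexes II and III and fatty acid oxidation are among those not shown. Dotted lines mark the shares over all tested genes, 15.9% lower and 12.0% higher. Lists of muscle membrane, calcium and fuel genes extend to the left. Those of respiratory complexes I, IV and V and of ribosomal, antigen presentation and endothelial genes extend to the right. The shares also varied with the level of a gene. Among 904 genes with a mean value from 100 to 500, 300 were lower and 156 higher, and among 2552 from 10 to 20, 205 and 258. The part of level in the list shares was not tested.

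Genes that tie the myocyte's cytoskeleton to its membrane and to neighbouring cells had many lower and no higher members before the length correction. Of 18 tested genes of the dystrophin-associated complex, which links actin to laminin across the sarcolemma, 8 were lower and 0 higher (median -0.28), and 10 and 0 after the length correction. Dag1, which encodes the laminin receptor dystroglycan, stood at 303, 276 and 262 in wild-type and 161, 119 and 176 in knockout hearts (log2 difference -0.89 ± 0.12, adjusted p = 0.000517). Dmd, dystrophin itself, stood at 128, 102 and 128 in wild-type and 73.1, 65.9 and 77.2 in knockout hearts (log2 difference -0.72 ± 0.09, adjusted p = 0.000403). The groups were separate in both. Untreated knockout values were above those of the treated knockout hearts, at 277, 323 and 303 for Dag1 and 106, 106 and 103 for Dmd. The sarcoglycans Sgcd and Sgcb, sarcospan (Sspn), the laminin chain Lama2 and dystrobrevin (Dtna) were lower with log2 differences of -1.28, -0.51, -0.56, -0.50 and -0.45. Sgca, the α-sarcoglycan, and Cav3, muscle caveolin, had log2 differences of 0.10 and 0.04 and did not pass.

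At the intercalated disc, where myocytes join end to end, 11 of 20 tested genes were lower and 0 higher (median -0.30), with 7 lower without wild-type replicate 1 and 7 lower and 1 higher after the correction. Cdh2, the N-cadherin of the adherens junction, stood at 284, 270.0 and 255 in wild-type and 191, 141 and 202 in knockout hearts (log2 difference -0.61 ± 0.11, adjusted p = 0.00232). Dsp, the desmosomal linker desmoplakin, stood at 1122, 964 and 1089 in wild-type and 781, 621 and 796 in knockout hearts (log2 difference -0.54 ± 0.10, adjusted p = 0.00233). Ctnna3, the αT-catenin of the heart, stood at 22.6, 19.6 and 20.7 in wild-type and 12.6, 9.8 and 11.8 in knockout hearts (log2 difference -0.82 ± 0.10, adjusted p = 0.000278). None of these 3 overlapped between the groups. Vcl (vinculin), Pkp2 (plakophilin 2), Ank3 (ankyrin G) and the coxsackievirus receptor Cxadr were lower with log2 differences of -0.40, -0.35, -0.61 and -0.43. Gja1, the gap junction protein connexin 43, had a log2 difference of -0.34 ± 0.09 (adjusted p = 0.0149), lost without wild-type replicate 1 and after the correction (-0.24, adjusted p = 0.0548).

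In the sarcomere and Z-disc 14 of 41 tested genes were lower and 4 higher (median -0.18; 16 and 2 after the correction). The lower genes included several thin-filament and Z-disc proteins. Tmod1, which caps the pointed end of actin filaments, stood at 309, 303 and 289.8 in wild-type and 207, 191 and 212 in knockout hearts (log2 difference -0.56 ± 0.07, adjusted p = 0.00021). Nebl, the cardiac nebulette, stood at 358, 301 and 301 in wild-type and 206, 161 and 221 in knockout hearts (log2 difference -0.71 ± 0.11, adjusted p = 0.00105). Knockout replicate 2 was the lowest library in both, and the groups did not overlap. Smyd1, a muscle methyltransferase, and the filament and Z-disc proteins Pdlim5, Cmya5, Flnc, Lmod2 and Xirp1 were lower with log2 differences of -0.48, -0.48, -0.62, -0.38, -0.34 and -0.36. Myh6, a myosin heavy chain, and Actc1, the cardiac actin, did not pass, with log2 differences of 0.03 and -0.18, the latter called lower after the correction.

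Among genes from the β-adrenergic receptor to protein kinase A, those called lower lay mostly downstream of the receptor. Adrb1, the main β-receptor of the myocyte, did not pass (12.4, 6.8 and 8.94 in wild-type and 8.08, 7.09 and 8.36 in knockout hearts; log2 difference -0.20 ± 0.19, adjusted p = 0.451). The treated groups overlapped there. The adenylyl cyclase Adcy5 stood at 76.9, 63.4 and 72 in wild-type and 52.2, 45.7 and 55.8 in knockout hearts (log2 difference -0.46 ± 0.09, adjusted p = 0.0035). Adcy9, another cyclase, stood at 21.1, 18.7 and 14.5 in wild-type and 10.6, 6.98 and 10.1 in knockout hearts (log2 difference -0.91 ± 0.16, adjusted p = 0.00217). Both were separate between the groups, while Adcy6 had a log2 difference of 0.11 and did not pass. The α1A-receptor Adra1a, which acts through calcium, was lower with a log2 difference of -0.91 ± 0.18, and Rapgef3, the cAMP sensor EPAC1, was the 1 higher gene of this list (30.4, 30.9 and 31.4 in wild-type and 42.7, 50.2 and 39.6 in knockout hearts; log2 difference 0.49 ± 0.09, adjusted p = 0.00232). In all, 4 of 17 receptor, G protein and cyclase genes were lower (median -0.01).

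Protein kinase A and its anchors had 7 of 16 tested genes lower and 2 higher (median -0.23). Prkar2a, a regulatory subunit that docks the kinase on its anchors, stood at 76.8, 68.9 and 70.3 in wild-type and 41.7, 32.9 and 43.4 in knockout hearts (log2 difference -0.86 ± 0.10, adjusted p = 0.000198). Akap6, an anchor at the nuclear envelope of myocytes, stood at 172, 151 and 148 in wild-type and 102, 79.5 and 114 in knockout hearts (log2 difference -0.68 ± 0.11, adjusted p = 0.00138). In both genes knockout replicate 2 was the lowest library. Pkia, the inhibitor peptide of the kinase, stood at 183, 196 and 183 in wild-type and 138, 104 and 140.3 in knockout hearts (log2 difference -0.57 ± 0.10, adjusted p = 0.00212). All 3 were separate between the groups, and Prkar1a, Akap11 and the catalytic Prkacb were also lower (-0.38, -0.46 and -0.32). Of 9 phosphodiesterase entries, the enzymes that break down cAMP and cGMP, 5 were lower and 1 higher (median -0.31). Pde3a, which degrades cAMP beside SERCA2, stood at 54.7, 42.5 and 43.2 in wild-type and 27.8, 15.9 and 25.2 in knockout hearts (log2 difference -1.02 ± 0.16, adjusted p = 0.00117). Pde1c, activated by calmodulin, stood at 70.5, 62.7 and 69.8 in wild-type and 39.8, 33.7 and 41.7 in knockout hearts (log2 difference -0.81 ± 0.09, adjusted p = 0.000159). In both genes each knockout library lay below each wild-type library. The cAMP response element TGACGTCA, searched on both strands from 250 bases before to 50 after the start, occurred in 26 of 705 promoters of higher genes (3.69%) and 28 of 991 of lower genes (2.83%), against 224 of 6241 promoters of tested genes (3.59%).

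Genes of calcium release and storage were among the lower ones. Ryr2, the ryanodine receptor that releases stored calcium, stood at 2048, 1813 and 1809 in wild-type and 1222, 1089.7 and 1270.2 in knockout hearts (log2 difference -0.66 ± 0.08, adjusted p = 0.000388). Casq2, the calcium buffer of the store, stood at 864, 912 and 791 in wild-type and 647, 529 and 631 in knockout hearts (log2 difference -0.51 ± 0.09, adjusted p = 0.00164). Neither overlapped between the groups. Srl (sarcalumenin) and Asph, a gene that also encodes junctin, were lower with log2 differences of -0.56 and -0.38. In the list 9 of 22 tested genes were lower and 1 higher (median -0.19), and 5 lower without wild-type replicate 1. Trdn (triadin), which anchors the buffer to the release channel, had a log2 difference of -0.16 and did not pass. Of 21 calcium-dependent kinase, phosphatase and partner genes 7 were lower and 1 higher, among them Camk2d, the cardiac calmodulin kinase (136, 132 and 126 in wild-type and 106, 87.8 and 100.4 in knockout hearts; log2 difference -0.43 ± 0.08, adjusted p = 0.00344), the calcineurin regulator Rcan2 (-0.43) and the class IIa deacetylases Hdac4 and Hdac9 (-0.67 and -0.42).

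Atp1b1, the β-subunit of the sodium pump, stood at 229, 238 and 247 in wild-type and 177, 155 and 171 in knockout hearts (log2 difference -0.50 ± 0.07, adjusted p = 0.000601), and the groups did not overlap. The calcium channel subunits Cacnb2 and Cacna2d1 were lower with log2 differences of -0.48 and -0.49. The pore of the L-type channel, Cacna1c, had a log2 difference of -0.17 and did not pass. Sodium and calcium channels and pumps together had 6 of 15 genes lower and 1 higher (median -0.17). Among potassium channels 7 of 19 were lower and 1 higher (median -0.26), and the lower count varied with the libraries, at 3 without wild-type replicate 1, 11 without wild-type replicate 3 and 4 without knockout replicate 2. Kcnj5, a pore of the acetylcholine-gated channel, stood at 81.6, 64.2 and 64.9 in wild-type and 49, 32.7 and 53.2 in knockout hearts (log2 difference -0.65 ± 0.14, adjusted p = 0.00637). Chrm2, the muscarinic receptor that opens it, stood at 119, 102 and 102 in wild-type and 60.8, 51.2 and 66.7 in knockout hearts (log2 difference -0.85 ± 0.10, adjusted p = 0.000198). Both were lowest in treated knockout replicate 2 and separate between the groups. Kcnq1 and Abcc9, of the slow repolarizing and ATP-gated channels, were lower with log2 differences of -0.44 and -0.49, and Kcna5, of the ultrarapid current, was higher (18.2, 16.1 and 16.7 in wild-type and 23, 28.6 and 24.8 in knockout hearts; log2 difference 0.55 ± 0.10, adjusted p = 0.00235).

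Regulators of fuel use had more lower than higher genes. Of 33 nuclear receptors and coregulators 14 were lower and 1 higher (median -0.22). The lower count was 9 without wild-type replicate 1 and 8 without knockout replicate 2, and 9 after the length correction. Esrrg, an estrogen-related receptor that drives oxidative genes, stood at 48.9, 47.8 and 39.9 in wild-type and 26.3, 24.4 and 28.6 in knockout hearts (log2 difference -0.76 ± 0.09, adjusted p = 0.000291). Lpin1, a phosphatidate phosphatase and coactivator, stood at 193, 189 and 163 in wild-type and 117, 116 and 129 in knockout hearts (log2 difference -0.59 ± 0.08, adjusted p = 0.000517). Ppara, the receptor that drives fatty acid oxidation, stood at 22.7, 23.4 and 22.5 in wild-type and 11.1, 6.57 and 12.3 in knockout hearts (log2 difference -1.16 ± 0.16, adjusted p = 0.000601). The groups did not overlap in any of the 3. The coactivators Ppargc1b and Ncoa2, Gabpa, a factor of nuclear respiratory genes, and the mineralocorticoid receptor Nr3c2 were lower with log2 differences of -0.55, -0.38, -0.42 and -0.51, while Esrra had a log2 difference of 0.03 and did not pass.

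Insulin and FoxO signalling had 10 of 34 genes lower and 0 higher (median -0.12; 6 without wild-type replicate 1 were lower). Pdpk1, the kinase that activates AKT, stood at 52.1, 50.7 and 46.4 in wild-type and 34.3, 30.1 and 35.1 in knockout hearts (log2 difference -0.57 ± 0.08, adjusted p = 0.000673). Irs1, the receptor substrate, stood at 22.9, 17.4 and 13.8 in wild-type and 5.91, 7.09 and 10.5 in knockout hearts (log2 difference -1.12 ± 0.19, adjusted p = 0.00159). Each knockout library lay below each wild-type library in both. Gsk3b, which restrains glycogen synthesis, was lower with a log2 difference of -0.46 ± 0.08. The AMP-activated kinase list had 6 of 14 lower and 1 higher, but the lower count was 2 without wild-type replicate 2 and 2 without knockout replicate 2. Prkaa2, its main catalytic subunit in muscle, stood at 172, 162 and 161 in wild-type and 103, 69.6 and 107 in knockout hearts (log2 difference -0.85 ± 0.12, adjusted p = 0.000798), with no overlap.

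Pyruvate entry and the tricarboxylic acid cycle had 15 of 30 genes lower and 1 higher (median -0.25; 13 and 1 after the correction, median -0.27). Genes on both arms of the switch at pyruvate dehydrogenase were lower. Pdpr, which holds back the activating phosphatase, stood at 80.5, 71.3 and 71.8 in wild-type and 31.8, 25.3 and 34.6 in knockout hearts (log2 difference -1.27 ± 0.11, adjusted p = 4.11e-05). Pdp2, a catalytic subunit of that phosphatase, stood at 13, 11.8 and 8.94 in wild-type and 6.01, 5.32 and 7.79 in knockout hearts (log2 difference -0.73 ± 0.15, adjusted p = 0.00404). Pdk1, an inactivating kinase, stood at 153, 159.9 and 159 in wild-type and 120.1, 96.3 and 126 in knockout hearts (log2 difference -0.47 ± 0.09, adjusted p = 0.00345). None of the 3 overlapped between the groups. The enzyme's own parts Pdha1, Dlat, Pdhx and Dld were lower with log2 differences of -0.40, -0.35, -0.33 and -0.43, and so were citrate synthase (Cs, -0.40) and Ogdh of oxoglutarate dehydrogenase (-0.42). Mpc2, of the pyruvate carrier, was the higher gene (159.6, 144 and 121 in wild-type and 182, 175 and 180.0 in knockout hearts; log2 difference 0.35 ± 0.09, adjusted p = 0.0135).

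Branched-chain amino acid catabolism had 8 of 23 genes lower and 0 higher (median -0.17; 5 without wild-type replicate 1 were lower). Aldh6a1, which acts late in valine breakdown, stood at 241, 230.1 and 194 in wild-type and 164, 121 and 166 in knockout hearts (log2 difference -0.57 ± 0.11, adjusted p = 0.00403). The groups were separate, and Dbt, of the branched-chain dehydrogenase, was lower with a log2 difference of -0.46 ± 0.11. Glucose transport, glycolysis and glycogen had 12 of 32 lower and 2 higher (median -0.16; higher count 0 without knockout replicate 2). The lower genes included both glycogen synthesis and breakdown. Gys1, the muscle glycogen synthase, stood at 112, 104 and 104 in wild-type and 84.9, 72.5 and 86.1 in knockout hearts (log2 difference -0.40 ± 0.08, adjusted p = 0.00431). Its groups did not overlap. Gbe1, Ugp2, Phka1 and Pygb, of glycogen branching, precursor supply and breakdown, and the hexokinases Hk1 and Hk2 were lower with log2 differences of -0.38, -0.38, -0.40, -0.40, -0.32 and -0.36, whereas the muscle glucose transporter Slc2a4 had a log2 difference of -0.05 and did not pass.

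Fatty acid uptake and oxidation had 6 of 36 genes lower (16.7%) and 3 higher (8.33%), with a median of -0.11. The lower share was near that over all tested genes (15.9%), and the higher share was below it (12.0%). The lower count was 3 without wild-type replicate 1, wild-type replicate 2 or knockout replicate 2 and 18 without wild-type replicate 3. The higher count was 1 after the length correction. Acsl1, which activates fatty acids, stood at 639, 612 and 512 in wild-type and 449, 354 and 450.3 in knockout hearts (log2 difference -0.49 ± 0.11, adjusted p = 0.00541). Slc27a1, a fatty acid transporter, stood at 61.1, 46.9 and 46.2 in wild-type and 74.7, 78.6 and 71.2 in knockout hearts (log2 difference 0.54 ± 0.10, adjusted p = 0.00275). Acsl1 was thus lower and Slc27a1 higher in every knockout library. The core β-oxidation genes Acadm and Hadha had log2 differences of -0.21 and -0.22 and did not pass, but were called lower without wild-type replicate 3. Of 34 genes of lipid synthesis and storage 3 were lower (8.82%) and 1 higher (2.94%), both below the shares over all tested genes. Gpam, the first acyltransferase of glycerolipid synthesis, stood at 117, 105 and 98.6 in wild-type and 49.6, 37.9 and 59 in knockout hearts (log2 difference -1.13 ± 0.13, adjusted p = 0.000182), and its groups did not overlap. Abhd5, the coactivator of triglyceride lipase, was lower with a log2 difference of -0.51 ± 0.10 and Mgll, the monoglyceride lipase, higher with a log2 difference of 0.36 ± 0.09. Of 12 ketone, creatine and adenylate genes 4 were lower and 1 higher. Oxct1, the enzyme of ketone use, stood at 1170.4, 1208 and 1002 in wild-type and 849, 717 and 889.9 in knockout hearts (log2 difference -0.46 ± 0.09, adjusted p = 0.00378). The groups were separate, and the mitochondrial adenylate kinases Ak3 and Ak4 were lower with log2 differences of -0.33 and -0.67.

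Of the respiratory complexes, I, III, IV and V had more higher than lower subunits encoded in the nucleus, complex III only before the length correction. Of 37 complex I genes 23 were higher and 1 lower (median 0.29), and 14 and 2 after the length correction (median 0.15). Of 14 complex IV genes 11 were higher and 0 lower (median 0.36), and 5 and 0 after it (median 0.15). Of 17 ATP synthase genes 10 were higher (median 0.25; 6 without wild-type replicate 3 and 5 without knockout replicate 1), and 4 after the correction (median 0.10). Of 4 complex II genes 0 were higher and 1 lower (median -0.14). Of 9 complex III genes 3 were higher and 1 lower (median 0.17), and 1 and 1 after the correction. The lists of complexes I, IV and V have median transcript lengths of 1005, 694 and 1697 bases, against 3656 over all tested genes.

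Ndufa5, an accessory subunit of complex I, stood at 187, 186 and 159 in wild-type and 244, 263 and 245 in knockout hearts (log2 difference 0.50 ± 0.08, adjusted p = 0.00115). Ndufa13, another accessory subunit, stood at 159.6, 158 and 133 in wild-type and 215, 238 and 209 in knockout hearts (log2 difference 0.55 ± 0.09, adjusted p = 0.00159). Cox7c, a small subunit of complex IV, stood at 111, 95.2 and 88.1 in wild-type and 157, 156 and 151 in knockout hearts (log2 difference 0.66 ± 0.10, adjusted p = 0.00118). In all 3 the lowest knockout value exceeded the highest wild-type value. Cox6a2, the heart and muscle form of another complex IV subunit, was higher with a log2 difference of 0.49 ± 0.09. The exception in complex I was its largest subunit Ndufs1, which carries iron-sulfur clusters and was lower (676, 672 and 562 in wild-type and 497, 377 and 486 in knockout hearts; log2 difference -0.50 ± 0.10, adjusted p = 0.00504). Sdha, the flavoprotein subunit of complex II, and Uqcrc2, a core subunit of complex III, had log2 differences of -0.33 and -0.32, calls that were lost without wild-type replicate 1 or 2 or treated knockout replicate 2. Of 13 mitochondrially encoded mRNAs 2 were higher and 0 lower (median 0.13), mt-Co3 and mt-Nd3, a complex I subunit mRNA, the latter at 3435, 3289 and 2954 in wild-type and 4094, 4629 and 4586 in knockout hearts (log2 difference 0.46 ± 0.09, adjusted p = 0.00346). mt-Nd5 had a log2 difference of -0.25 and mt-Nd4l -0.23, with all knockout values below all wild-type values, and neither passed in the fit over all libraries. Both were called lower without knockout replicate 2, mt-Nd5 also without wild-type replicate 3 and mt-Nd4l also after the correction. Lrpprc, which stabilizes mitochondrial mRNAs, was lower (199.6, 195 and 161 in wild-type and 145, 114 and 136 in knockout hearts; log2 difference -0.49 ± 0.10, adjusted p = 0.00445), one of 5 lower and 0 higher among 22 genes of mitochondrial DNA upkeep and expression (lower count 2 without wild-type replicate 1 or knockout replicate 2, 3 without wild-type replicate 2 or untreated knockout replicate 1, 10 without wild-type replicate 3 and 2 after the length correction).

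**Figure D4:**
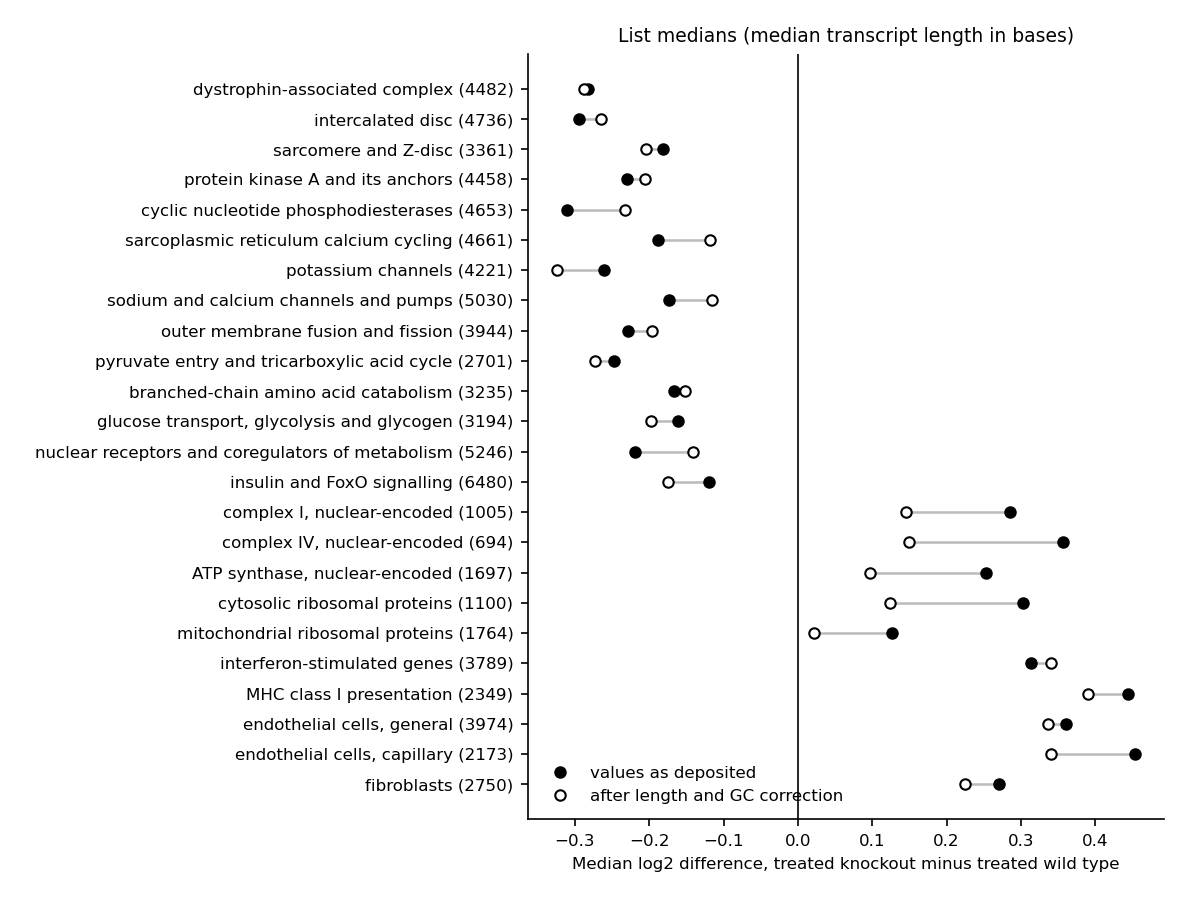
Median log2 difference between treated knockout and treated wild-type hearts (x axis) for each list, from the deposited values (filled points) and with the trend on length and GC content removed (open points), with the list's median transcript length in bases in parentheses. The median of complex IV moves from 0.36 to 0.15 and that of cytosolic ribosomal proteins from 0.30 to 0.12, while the dystrophin-associated complex stays at -0.28 and -0.29 and endothelial markers at 0.36 and 0.34.

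Cytosolic ribosomal proteins were higher for 48 and lower for 0 of 74 genes (median 0.30), and for 21 and 0 after the length correction (median 0.12). Rpl13, of the large subunit, stood at 91.8, 81.3 and 87.1 in wild-type and 138, 138 and 134 in knockout hearts (log2 difference 0.65 ± 0.07, adjusted p = 0.000198). Rps29, of the small subunit, stood at 104, 89.1 and 75 in wild-type and 148, 156 and 150.5 in knockout hearts (log2 difference 0.77 ± 0.10, adjusted p = 0.000485). The groups were separate in both, and untreated knockout libraries lay nearer to the treated wild-type ones, at 94.1, 102 and 88 for Rpl13 and 109, 99.7 and 93.5 for Rps29. Genes of this family have many processed pseudogenes, and reads can be shared with them. Mitochondrial ribosomal proteins were higher for 12 and lower for 2 of 74, with a median of 0.13 (0.02 after the correction), and the higher count was 7 without wild-type replicate 1, 5 without wild-type replicate 3, 6 without knockout replicate 1 and 4 without knockout replicate 2. The lower count was 0 without wild-type replicate 2, knockout replicate 1 or knockout replicate 2.

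Ribosomal protein mRNAs are known to start in a run of pyrimidines through which their translation is controlled. A tract of CTTTC or CTTTT on the gene strand, between 5 bases before and 15 after the annotated start, was found in 14 of 52 ribosomal protein genes with a RefSeq promoter (26.9%) and in 9 of the 31 that were higher (29.0%), against 283 of 6241 tested genes (4.53%). Of the 9 windows in higher genes, 4 are shown to let the tract be seen in sequence, from RefSeq on GRCm38.p6 and written 5′ to 3′ on the gene strand, with the tract in capitals.
Rpl38 (chr11:114668570-114668594, plus strand): aagcctcgttCTTTCcccgttctct
Rplp2 (chr7:141447641-141447665, plus strand): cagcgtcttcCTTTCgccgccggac
Rpl18 (chr7:45718064-45718088, plus strand): gcaggccgctCTTTCcccgcccact
Rpl35a (chr16:33056474-33056498, plus strand): ttgccttcctCTTTCcgccatcttg
These genes differed with log2 differences of 0.54, 0.34, 0.27 and 0.35. The call of Rpl35a held without each library and after the length correction, those of Rpl38 and Rplp2 were lost after the length correction (0.15, adjusted p = 0.209, and 0.11, adjusted p = 0.345) and that of Rplp2 also without knockout replicate 2, and that of Rpl18 was lost without wild-type replicate 1 or treated knockout replicate 1.

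Of 58 initiation and elongation genes 3 were higher and 9 lower (median -0.05). The share that was lower (15.5%) was near that over all tested genes (15.9%), and the lower count was 4 without wild-type replicate 1, wild-type replicate 2 or knockout replicate 2 and 4 after the length correction. Eif2s3x, a subunit of the factor that delivers the initiator tRNA, was lower, at 82.2, 83.9 and 79.6 in wild-type and 66.5, 59.7 and 66.2 in knockout hearts (log2 difference -0.35 ± 0.07, adjusted p = 0.00476). Its groups were separate, and Eef1d, of the elongation factor exchange complex, higher with a log2 difference of 0.32 ± 0.07. Of 36 aminoacyl-tRNA synthetase genes 1 was higher (2.78%) and 6 were lower (16.7%), with a median of 0.009. That lower share was also near the one over all tested genes (15.9%). The lower genes included Dars and Iars (log2 differences -0.34 and -0.30). They numbered 2 without wild-type replicate 1 or knockout replicate 2, 3 without wild-type replicate 2 or untreated knockout replicate 2 and 2 after the length correction. Of 33 proteasome subunits 3 were higher (9.09%) and 1 lower (3.03%), both below the shares over all tested genes (median 0.05; higher count 5 without wild-type replicate 2 and 0 after the length correction).

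Haem and iron genes were split, with 6 of 27 higher and 7 lower (median -0.02). Tfrc, the transferrin receptor that takes up iron, stood at 232, 256 and 175 in wild-type and 104, 119 and 119 in knockout hearts (log2 difference -0.94 ± 0.12, adjusted p = 0.000294), with all knockout values below all wild-type values. Alad, the second enzyme of haem synthesis, stood at 17.4, 22.1 and 16.8 in wild-type and 48.1, 48.6 and 43.7 in knockout hearts (log2 difference 1.28 ± 0.10, adjusted p = 2.45e-05), and its untreated knockout values were 60.5, 70.5 and 59.4, so all 6 knockout libraries lay above the wild-type ones. Along the same pathway Alas1 and Cpox were lower with log2 differences of -0.34 and -0.65, and Ppox and the mitochondrial iron importer Slc25a37 were higher with log2 differences of 0.60 and 0.50. The erythroid genes Hba-a1 and Alas2 stood at 340.1, 1529 and 448 and 17.3, 85.9 and 23.2 in treated knockout hearts, highest in replicate 2, and did not pass, although Alas2 was called lower once that library was left out.

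Most markers shared by endothelial cells were higher. Of 27 tested genes shared by endothelial cells 21 were higher and 0 lower (median 0.36; 21 and 0 after the length correction), and 12 were higher without knockout replicate 2. Egfl7, a secreted factor of vessels, stood at 98.7, 109.5 and 109 in wild-type and 146, 206 and 153 in knockout hearts (log2 difference 0.65 ± 0.11, adjusted p = 0.00153). Sox17, a transcription factor of vessel identity, stood at 7.43, 7.49 and 7.3 in wild-type and 15.1, 13.5 and 11.7 in knockout hearts (log2 difference 0.77 ± 0.13, adjusted p = 0.00159). Sox18, its relative, stood at 44.6, 35.2 and 37 in wild-type and 57.1, 74 and 57.4 in knockout hearts (log2 difference 0.67 ± 0.11, adjusted p = 0.00159). Treated knockout replicate 2 was the highest library for Egfl7 and Sox18 but not for Sox17, and no gene of the 3 overlapped between the groups. Nos3, the endothelial nitric oxide synthase, the tight junction gene Cldn5 and the receptors Tie1 and Flt1 were higher with log2 differences of 0.53, 0.63, 0.45 and 0.32, whereas Cdh5 (VE-cadherin) and Vwf had log2 differences of 0.19 and 0.18 and did not pass.

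Of 10 capillary markers 9 were higher (median 0.45), 3 without knockout replicate 2 and 5 after the correction. Fabp4, a fatty acid carrier of capillaries, stood at 458, 469 and 394 in wild-type and 617, 754 and 644 in knockout hearts (log2 difference 0.61 ± 0.10, adjusted p = 0.00119). Its groups were separate, and Ly6c1 and Cd300lg, other genes of the list, were higher with log2 differences of 0.51 and 0.37. Of 7 arterial markers 4 were higher (2 without wild-type replicate 2 or treated knockout replicate 3), among them the Notch ligand Dll4 (19, 18.7 and 19.5 in wild-type and 24.2, 40.4 and 26.5 in knockout hearts; log2 difference 0.61 ± 0.14, adjusted p = 0.00809) and Notch4 (0.48). Of 7 venous and lymphatic markers 1 was higher and 1 lower (median 0.31). The lower one was Prox1 (-0.60), which is also counted among the cardiac transcription factors below. Fibroblast markers were higher for 6 and lower for 0 of 13 (median 0.27). Htra3, a secreted protease, stood at 71.5, 69.2 and 74.5 in wild-type and 101, 100.5 and 94.3 in knockout hearts (log2 difference 0.45 ± 0.07, adjusted p = 0.00118). Its groups were separate, and Pi16 and Gsn were higher with log2 differences of 0.41 and 0.42. Pdgfra, Dcn and Lum, other markers of the list, had log2 differences of -0.11, 0.04 and -0.06 and did not pass. Of 8 pericyte and 6 smooth muscle markers 2 and 1 were higher and 1 and 2 lower (higher pericyte count 0 after the length correction). The lower pericyte marker was Abcc9 (-0.49), which is also counted among the potassium channels above. Of 13 cardiomyocyte markers 2 were higher and 3 lower (median 0.06; lower count 1 without wild-type replicate 1 or knockout replicate 2), and none of the 13 tested proliferation genes passed (median 0.06). The summed value of the endothelial list ran from 2246 to 2326 in the wild-type and from 2675 to 3209 in treated knockout hearts, and its part in the other results was not tested.

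**Figure D5:**
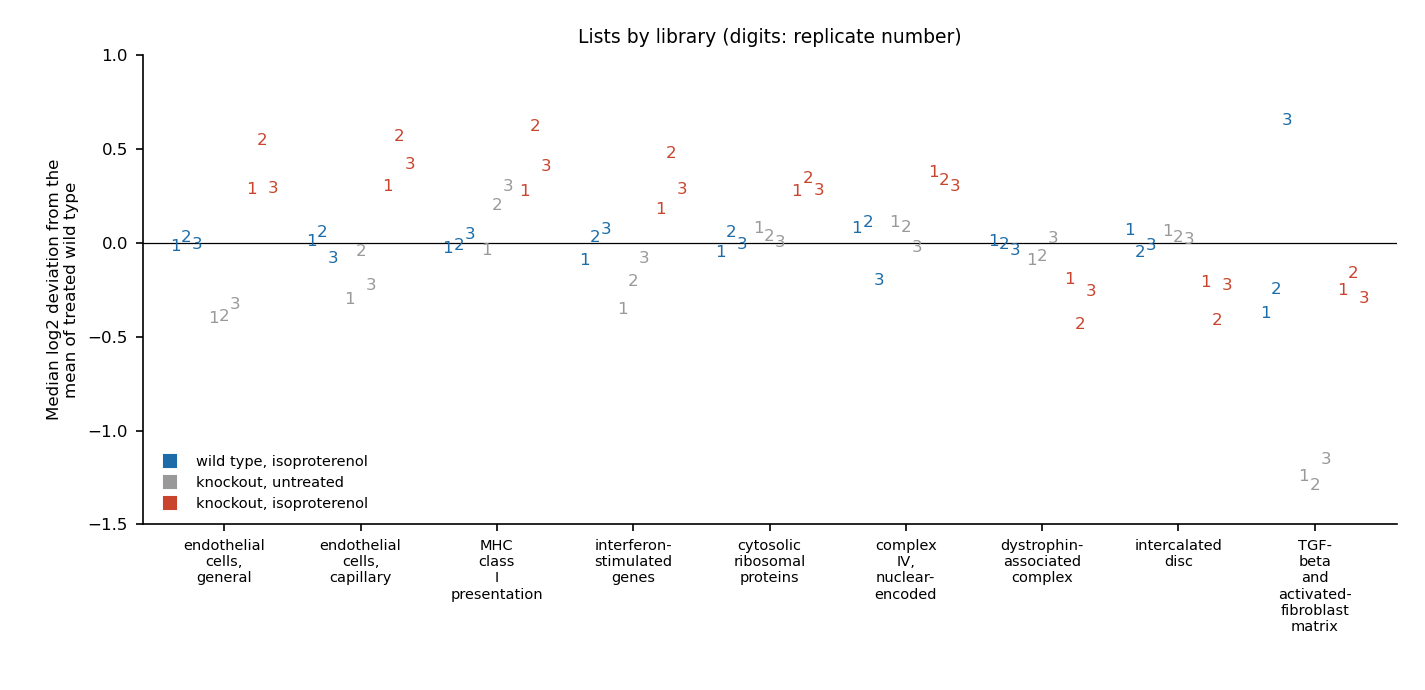
Median over the tested genes of each list (x axis) of the log2 deviation from the mean of treated wild-type hearts (y axis), 1 digit per library giving its replicate number, coloured by group. Treated knockout replicate 2 is the farthest from zero in the endothelial, antigen presentation, interferon, dystrophin and disc lists (0.55 for endothelial markers in general, against 0.29 and 0.29), and in the matrix list treated wild-type replicate 3 stands apart at 0.65.

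Genes of the interferon response and of antigen presentation had many higher members. Of 42 tested interferon-stimulated genes 13 were higher and 0 lower (median 0.31), with 17 higher after the length correction. The higher count was 6 without wild-type replicate 1, 8 without wild-type replicate 2, 4 without knockout replicate 2 and 8 without knockout replicate 3. Oas2, which makes the antiviral messenger 2′-5′ oligoadenylate, stood at 13.8, 13.8 and 15.9 in wild-type and 24.1, 36.4 and 20.9 in knockout hearts (log2 difference 0.83 ± 0.17, adjusted p = 0.00415). Ifit3, an antiviral RNA-binding partner, stood at 14.7, 15.1 and 18.4 in wild-type and 20.7, 24.8 and 22.3 in knockout hearts (log2 difference 0.47 ± 0.12, adjusted p = 0.0105). Irf1, a transcription factor of the response, stood at 18.6, 20.6 and 18.7 in wild-type and 24.1, 28.7 and 26.7 in knockout hearts (log2 difference 0.43 ± 0.09, adjusted p = 0.00442). The 3 genes were separate between the groups, with replicate 2 the highest knockout library in each. Ddx58, a sensor of viral RNA, had a log2 difference of 0.13 and did not pass.

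Of 16 genes of MHC class I presentation 12 were higher and 1 lower (median 0.44), with 8 and 0 after the correction. The higher count was 7 without wild-type replicate 1 and 6 without knockout replicate 2. The heavy chain gene H2-D1 stood at 130.3, 131 and 149.8 in wild-type and 183, 240.2 and 197 in knockout hearts (log2 difference 0.58 ± 0.12, adjusted p = 0.0044). H2-K1, another heavy chain gene, stood at 102, 97.8 and 114 in wild-type and 135, 193 and 155 in knockout hearts (log2 difference 0.60 ± 0.15, adjusted p = 0.0099). Tap2, of the peptide transporter, stood at 22.6, 23.4 and 24.9 in wild-type and 31.5, 34.1 and 29.4 in knockout hearts (log2 difference 0.40 ± 0.10, adjusted p = 0.00997). No gene of these 3 overlapped between the groups, and replicate 2 was the highest knockout library in each. Heavy chain genes are near-identical, so reads can be shared among them, and in untreated knockout hearts H2-K1 stood at 106, 152 and 159, across the range of both treated groups. MHC class II genes, markers of antigen-presenting cells, were higher as well, with Cd74, the class II chaperone, at 58.5, 48.5 and 65.8 in wild-type and 91.9, 109 and 86.3 in knockout hearts (log2 difference 0.73 ± 0.15, adjusted p = 0.00425) and H2-Aa and H2-Eb1 higher with log2 differences of 0.58 and 0.77. Untreated knockout hearts had Cd74 values of 106, 118 and 166, also above the treated wild-type range. Of 11 tested macrophage markers, class II genes included, 4 were higher and 0 lower (median 0.33; higher count 7 without wild-type replicate 3). The 4 higher ones were the class II genes Cd74, H2-Aa, H2-Eb1 and H2-Ab1, the last with its call lost after the correction (0.33, adjusted p = 0.104). Csf1r and Mrc1, receptors of macrophages, had log2 differences of 0.03 and -0.12 and did not pass.

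The interferon-stimulated response element, to which interferon-activated factors bind, was taken as 2 copies of GAAA with any 2 bases between them (TTTC on the opposite strand) and searched on both strands of RefSeq promoters from 250 bases before to 50 after the start. It was found in 17 of 32 promoters of the interferon list (53.1%) and in 3 of 9 of its higher genes (33.3%), in 3 of 11 higher class I genes (27.3%), and in 231 of 6241 promoters of all tested genes (3.7%). Matches can overlap one another, and each promoter was counted once. To show the element in place, windows of 60 bases around the element (in capitals) are given for the higher genes that hold it before the start, on GRCm38.p6, 5′ to 3′ on the gene strand.
Ifit3 (chr19:34583348-34583407, plus strand): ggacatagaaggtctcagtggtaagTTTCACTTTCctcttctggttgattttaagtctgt
Ifit3 (chr19:34583382-34583441, plus strand): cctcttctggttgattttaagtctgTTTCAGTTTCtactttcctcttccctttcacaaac
Ifi203 (chr1:173942493-173942552, minus strand): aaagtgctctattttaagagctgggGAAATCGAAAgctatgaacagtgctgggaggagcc
B2m (chr2:122147523-122147582, plus strand): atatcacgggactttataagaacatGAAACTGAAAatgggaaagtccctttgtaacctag
H2-T22 (chr17:36042899-36042958, minus strand): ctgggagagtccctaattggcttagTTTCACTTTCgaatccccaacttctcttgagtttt
H2-T23 (chr17:36032791-36032850, minus strand): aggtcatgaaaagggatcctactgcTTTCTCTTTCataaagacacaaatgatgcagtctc
The other higher gene with the element is Ifih1 (0.36 ± 0.12, adjusted p = 0.0448), which holds it from 32 to 41 bases after the start. Its call was lost without any 1 library other than wild-type replicate 2. Ifit3 and H2-T23 (0.51 ± 0.13, adjusted p = 0.0106) kept their calls without each library and after the length correction, but not at a threshold of 0.01. Ifi203 (0.35 ± 0.11) lost its call without wild-type replicate 1 or 2 or knockout replicate 2, and H2-T22 (0.45 ± 0.12) without wild-type replicate 1 or knockout replicate 2 or 3. B2m (0.44 ± 0.15) lost its call without wild-type replicate 1 or 2, knockout replicate 2 or 3 or untreated knockout replicate 2, and after the length correction (0.35, adjusted p = 0.142).

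Of 19 cardiac transcription factors 6 were lower and 1 higher (median -0.18; higher count 3 without wild-type replicate 1). Besides Tead1 they included Prox1, a homeobox factor needed for sarcomere structure, at 85, 70.9 and 72 in wild-type and 52.2, 40.6 and 58 in knockout hearts (log2 difference -0.60 ± 0.11, adjusted p = 0.00302). Myocd, the coactivator of serum response factor, stood at 39.2, 33.9 and 34.4 in wild-type and 26.6, 20.9 and 26.4 in knockout hearts (log2 difference -0.53 ± 0.10, adjusted p = 0.00304). Neither overlapped between the groups, and Zfpm2, the partner of GATA4, was lower with a log2 difference of -0.63. Mef2c had a log2 difference of -0.12 and did not pass. Klf2, a factor induced by flow in endothelium, was higher (29.8, 24.3 and 25.4 in wild-type and 43, 43.3 and 37.4 in knockout hearts; log2 difference 0.62 ± 0.11, adjusted p = 0.00231). Of 21 clock genes 1 was higher, Per1 (14, 10.4 and 13.9 in wild-type and 19.1, 18.8 and 19.5 in knockout hearts; log2 difference 0.56 ± 0.12, adjusted p = 0.00572), and 3 were lower, including the repressor Bhlhe41 (log2 difference -0.40; lower count 1 after the length correction). The clock shares of 4.76% higher and 14.3% lower did not exceed those over all tested genes (12.0% and 15.9%). The E-box CACGTG, bound by the clock's activators, was found on either strand in 4 of 17 promoters of the clock list (23.5%) against 779 of 6241 of all tested genes (12.5%).

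The lists of stress pathways held called genes in both directions. Of 25 genes of the endoplasmic reticulum response 4 were lower and 0 higher (2 without wild-type replicate 2 and 2 without knockout replicate 1). Atf6, a membrane-bound sensor, was lower, at 127, 134 and 119.6 in wild-type and 84, 72.5 and 93.3 in knockout hearts (log2 difference -0.61 ± 0.09, adjusted p = 0.000798), without overlap. Of 14 genes of the integrated stress response 3 were higher (21.4%) and 2 lower (14.3%), with a median of 0.04. The higher count was 1 without wild-type replicate 1, untreated knockout replicate 2 or knockout replicate 2, and the lower count 0 without wild-type replicate 1, wild-type replicate 2 or knockout replicate 2 and 0 after the length correction. Ddit3, the factor CHOP of that response, stood at 8.8, 10.1 and 11.1 in wild-type and 14.9, 13.9 and 13.9 in knockout hearts (log2 difference 0.47 ± 0.11, adjusted p = 0.00961), and the groups were separate at these low values. Of 14 mitochondrial chaperone genes 4 were lower (28.6%) and 1 higher (7.14%). Their lower count was 2 without wild-type replicate 1, 1 without wild-type replicate 2, 7 without wild-type replicate 3 and 0 without knockout replicate 2. Of 40 antioxidant genes 6 were higher and 3 lower, and 1 and 4 after the correction. The higher count was 3 without knockout replicate 1, and the lower count 1 without wild-type replicate 1, wild-type replicate 2 or knockout replicate 2. Sod1, the cytosolic superoxide dismutase, was higher, at 111, 123 and 95 in wild-type and 147, 153 and 140.1 in knockout hearts (log2 difference 0.42 ± 0.09, adjusted p = 0.00617). Txnrd1, the thioredoxin reductase, was lower, at 63.5, 62.6 and 57.6 in wild-type and 49.2, 51.3 and 49.7 in knockout hearts (log2 difference -0.28 ± 0.07, adjusted p = 0.0107). The groups were separate in both. Of 20 p53 targets and death genes 2 were higher (10.0%) and 6 lower (30.0%), with a median of 0.03. The higher count was 0 without wild-type replicate 2, untreated knockout replicate 1 or knockout replicate 2, and the lower count 3 without knockout replicate 2. Ccng1, a cyclin induced by p53, was lower (862, 843 and 765 in wild-type and 594, 491 and 629 in knockout hearts; log2 difference -0.53 ± 0.09, adjusted p = 0.00159), while Cdkn1a had a log2 difference of 0.04 and did not pass.

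For matrix genes of activated fibroblasts the direction of the median depended on 1 library. Of 31 tested 1 was higher and 1 lower, with a median of -0.24. Leaving out treated wild-type replicate 3 gave 4 higher and 1 lower (median 0.09), and leaving out replicate 1 gave 1 and 6 (median -0.39). Lox, the collagen cross-linking enzyme, stood at 7.15, 13 and 91.7 in wild-type and 11.9, 11 and 9.33 in knockout hearts (log2 difference -0.91 ± 0.59, adjusted p = 0.268). The third wild-type library lay far above the other 2, the groups overlapped, and the gene was called lower only without wild-type replicate 1. The 2 called genes belong to TGF-β signalling. Smad7, the inhibitor of its receptors, was higher, at 13, 9.92 and 11.3 in wild-type and 16.5, 16.2 and 18.3 in knockout hearts (log2 difference 0.54 ± 0.13, adjusted p = 0.00855). Smad4, the shared partner of its transcription factors, was lower, at 37.3, 39.4 and 40.4 in wild-type and 32.5, 30.6 and 31.6 in knockout hearts (log2 difference -0.30 ± 0.08, adjusted p = 0.0157), and the groups were separate in both.

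Of 33 tested genes within 5 Mb of Oma1 on chromosome 4, Oma1 included, 1 was higher and 12 were lower (median -0.16). Oma1 itself is among the lower ones. Of all 530 tested genes of chromosome 4, 58 were higher and 83 lower (median 0.008). Over all tested genes 12.0% were higher and 15.9% lower. Echdc2, an enoyl-CoA hydratase family member, was the higher one (16.3, 14.9 and 14.8 in wild-type and 29.9, 31 and 26.2 in knockout hearts; log2 difference 0.88 ± 0.09, adjusted p = 6.82e-05), and its untreated knockout values (32, 33.1 and 35) also lay above the wild-type ones. Prkaa2, Ak4, Pgm2, Zyg11b and Usp24 were lower with log2 differences of -0.85, -0.67, -0.47, -0.60 and -0.40, and in untreated knockout hearts Prkaa2 stood at 173, 174 and 171, near the treated wild-type level. The part that sequence flanking the knockout allele may have in these values was not tested.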

How the data were processed

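RNA from 9 heart libraries was sequenced after TRIzol and column extraction and TruSeq library preparation, per the labels' protocols. The deposited values are library-size-normalized RSEM expected counts, treated here as a signal scaled by 1 factor per library, and the submitters' processing notes name cutadapt, RSEM 1.17, limma and GRCm38 without giving their roles. All values were whole multiples of what 1 read is worth (100% within 0.02 reads), which gave the reads per library.

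Genes that reached 10 in 3 or more libraries were tested on log2(value + 1) with limma 3.58.1 (R 4.3.3), with a mean-variance trend and 1 mean for each of the 3 groups over all 9 libraries. Benjamini-Hochberg adjustment ran over all 8543 genes, with a threshold of 0.05. Fold changes on this scale understate those of low genes. Counts were also simulated with 1 fixed dispersion for all genes, no length trend and no outlying library. Of 99 genes changed 1.5-fold 85.9% were recovered and of 98 changed 2-fold 100%, with 4 false calls among 8455 genes. The median called difference of the real data (0.37 on the log2 scale) was smaller than both folds. The error rate of the real calls was not tested by this simulation. Transcript length and GC content, of the longest GENCODE transcript on GRCm38, were available for 8494 tested genes and were fitted with natural splines of 5 degrees of freedom in each library. RefSeq promoters (GRCm38.p6) were matched by symbol for 6241 tested genes, and the serum response element was not searched.

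Described in full were Oma1 and Opa1, the 12 largest rises and falls among called genes with a mean of at least 50 and separate groups, the largest changes of the value itself, and from each gene list described chiefly the members with the smallest p, with further members of known role that did or did not pass. A few genes are not reported here. The members and lists were chosen with earlier results of these data known. Alternatives were other pseudocounts, filters, scalings, thresholds and fits, edgeR 4.0.16 and DESeq2 1.42.0 on the recovered reads, and leaving out each library.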

Additional observations from a re-analysis of the deposited data

How the results depend on the processing

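Against 2379 genes past the threshold (1023 higher, 1356 lower), a filter of 50 left 1236 (425 and 811) of 2661 tested, and a threshold of 0.01 left 959 (358 and 601). Leaving out 1 library at a time gave 1336 (without knockout replicate 2) to 2382 (without wild-type replicate 3) genes, 534 to 979 of them higher and 802 to 1403 lower. Without wild-type replicate 1 the lower count was 902. Without both wild-type replicate 3 and knockout replicate 2, chosen after seeing the data, 682 were higher and 1140 lower. edgeR on the recovered reads called 2428 genes and DESeq2 2035, TMM scaling 2405, cyclic loess scaling 2360, and the 6 treated libraries alone 1795. With the replicate number as a block the count was 2258. The numbers share no stated animal or batch, and same-numbered treated libraries deviated from their group means with correlations of 0.18, -0.04 and -0.14. No gene past the threshold was past it with the opposite sign under any of these alternatives. Of the 219 tested genes named here, 11 lost the call after the length and GC correction and 40 at the threshold of 0.01, and 0 changed sign while called. Of genes with a mean value below 10, 14.5% passed, against 50.4% with a mean from 100 to 500 and 32.2% from 500 upward, and the part of depth in these shares was not tested.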
